A study of Oryza sativa with 12 samples.

Results

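In leaves of 2 rice (Oryza sativa) cultivars, 56 of 37849 nuclear loci, or 0.148%, gave polysome-bound mRNA in every library of 1 cultivar and far less or none in the libraries of the other, over the 10 of 12 libraries that were used to choose them. They are called cultivar-restricted here, although the 2 APO libraries not used, described below, depart from this pattern. The rule rescaled each library's TPM, a length-corrected share of its transcripts, to a total of 1000000 over nuclear loci. A gene was kept when its lowest value in 1 cultivar was at least 4 and at least 6 times the highest value in the other cultivar plus 0.5. It found 31 genes higher in APO, out of 10411 loci whose lowest APO value was at least 4 (0.298%), and 25 genes higher in IR64, out of 9923 loci whose lowest IR64 value was at least 4 (0.252%). The genes were thus chosen by the difference between the cultivars in these 10 libraries, which is described below and not tested. Of the 56 genes, 18 were listed at 0 in every library of the other cultivar that the rule used, 10 of those higher in APO and 8 of those higher in IR64. The other 38 had a value above 0 somewhere in the other cultivar. The tables measure RNA, and whether the gene itself is missing from a cultivar's genome was not analysed here.

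The libraries were made from polysomal RNA, the mRNA held on ribosomes, of the leaves of 2 indica cultivars under 4 conditions with 3 libraries each. These were APO, which the series title calls tolerant, under 50% drought and under control conditions, and IR64, which it calls susceptible, under 50% drought and under control conditions. Nothing in the labels tells if a group's 3 libraries are 3 plants or 1, so p-values measure only the spread between these libraries, which may be technical. Total RNA was not used here, so less polysomal mRNA of a gene and less mRNA of it in all cannot be told apart, nor can fewer cells of a type and less RNA per cell.

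Rice cultivars differ from each other in gene content as well as in sequence. Genes of plant immunity are known for this: nucleotide-binding leucine-rich repeat receptors, which detect pathogen proteins inside the cell, and wall-associated kinases, which span the plasma membrane and bind the cell wall, sit in tandem clusters whose copies are gained and lost between cultivars. A table of reads against 1 annotated genome shows a gene only where that annotation holds it and the cultivar's reads still match it.

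The libraries differ in how much of them lies on nuclear genes. The nuclear share of TPM was 12.3 to 83.3% in the 10 libraries of the rule, against 1.21% in the library labelled APO drought 1 and 5.04% in APO control 3, which the rule left out. A nuclear-scaled TPM of 4 stood for a mean read depth per base of 0.164 in IR64 drought 3 and of 14.1 in IR64 control 2, so a value of 0 in IR64 drought 3 says less than a value of 0 in IR64 control 2. The leaf markers, which are chloroplast light-harvesting, photosystem, Rubisco small-subunit and Rubisco activase genes, were above 0 in all 10 libraries at 13 of 13 loci, while the seed glutelin GluB1 reached 0.040. Of the root silicon transporters, LSI1 was at 0 to 67.7 and at 0 in 1 of the 10 libraries, and LSI2 was at 0 to 4.82 and at 0 in 5. The anther genes RTS and OSC6 reached 2.40 and 5.05 and were at 0 in 8 and 7 of the 10 libraries. The part of other tissues in the results was not tested. Over the 10 libraries of the rule, rank correlations between libraries of a group lay between 0.765 and 0.934. No pair of these 10 shared an identical value above 0 after rescaling. Since each library was rescaled by its own total, this can only show that none is a copy of another.

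A gene symbol stands beside 8 members in the deposited tables, and these are mostly genes of defence, of cell-wall sensing and of hormone or sugar metabolism. The other 48 members are given by locus only. A symbol was present for 3 of 31 genes higher in APO (9.68%), against 36.5% of the 10411 loci of that cultivar, and for 5 of 25 genes higher in IR64 (20.0%), against 36.7% of the 9923 loci. Coordinates below are those of the deposited tables, and the genome build is not given in the sources used here.

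OsPR1b, a pathogenesis-related 1 protein whose mRNA is a standard marker of rice defence signalling, had the highest median among the genes higher in APO. It lies at Os01g0382000 on the plus strand of chromosome 1, from 15934495 to 15935317. Its nuclear-scaled TPM was 227 and 67.2 in APO drought 2 and 3 and 222 and 96.5 in APO control 1 and 2, against 0, 0.720 and 0 in IR64 drought 1 to 3 and 1.90, 2.25 and 10.4 in IR64 control 1 to 3. All APO libraries stood above all IR64 libraries, and IR64 control 3 was the highest of the IR64 libraries. OsPR1b is also the member nearest to the limit of the rule in APO, because of that 1 library.

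OsTPP7, a trehalose-6-phosphate phosphatase known from rice seedlings that germinate under water, where it speeds the use of starch, lies at Os09g0369400 on the plus strand of chromosome 9, from 12251875 to 12254061. It was at 16.1 and 23.6 in APO drought 2 and 3 and at 85.8 and 64.1 in APO control 1 and 2. In IR64 it was listed at 0 in 5 libraries and was at 1.53 in IR64 control 1. In background knowledge, IR64 is the parent that lacks this gene in the cross in which OsTPP7 was found. Whether OsTPP7 is missing from the IR64 plants used here, and where the value in IR64 control 1 comes from, was not tested. The next locus upstream, Os09g0369050, was at 61.2 to 131 in the 4 APO libraries and at 71.2 to 259 in the 6 IR64 libraries, so RNA from beside OsTPP7 was present in both cultivars.

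CYP714C3, a cytochrome P450 of a family that includes gibberellin-oxidising enzymes, was the lowest of the named genes in APO. It lies at Os11g0119200 on the plus strand of chromosome 11, from 856524 to 860980. It was at 4.26 and 11.1 in APO drought 2 and 3 and at 5.93 and 5.52 in APO control 1 and 2, and was listed at 0 in all 6 IR64 libraries. The ends of the short arms of rice chromosomes 11 and 12 hold a duplicated block, so genes near the end of chromosome 11 may share reads with copies on chromosome 12, which makes its level uncertain.

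Of the named genes 5 were higher in IR64, and 4 of these encode receptors. PISH, a nucleotide-binding leucine-rich repeat gene for resistance to rice blast, was at 1.05, 0.156, 0.728 and 0.276 in APO drought 2 and 3 and APO control 1 and 2. In IR64 it was at 16.9, 13.5 and 24.3 under drought and at 10.3, 13.5 and 13.4 in control. Pi37(t), another blast resistance gene of this kind next to it, was at 0, 0, 0.475 and 0.157 in the same APO libraries, and at 15.0, 11.3 and 24.0 under drought and 8.72, 11.3 and 11.7 in control in IR64. Both genes gave low values in APO and lay within 8.72 to 24.3 in IR64, with IR64 drought 3 the highest library for each.

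The wall-associated kinases OsWAK123 and WAK14 were also higher in IR64. OsWAK123 (Os11g0694100, plus strand of chromosome 11, 28356988 to 28362710) was listed at 0 in 3 of the APO libraries and was at 0.962 in APO control 2. In IR64 it was at 33.7, 37.8 and 53.2 under drought and at 31.7, 56.5 and 196 in control, so that IR64 control 3 stood well above the other 5 libraries. WAK14 (Os02g0632800, minus strand of chromosome 2, 25348252 to 25351744) reached 0.0393 in APO drought 3 and was listed at 0 in the other 3 APO libraries. In IR64 it was at 6.59, 8.71 and 18.8 under drought and at 12.4, 19.9 and 28.9 in control. Of 74 loci with a wall-associated kinase symbol, 7 had a lowest APO value of at least 4 and 9 had a lowest IR64 value of at least 4, and these 2 genes were the members among them. OsWAK15, the next kinase of this family beside WAK14, was at 0 to 3.61 in APO and at 0 to 0.369 in IR64.

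OsKS3, a kaurene synthase-like gene of the diterpene family, completes the named genes. It lies at Os04g0611700 on the plus strand of chromosome 4, from 31019367 to 31024094. It was at 0.541 in APO control 1 and listed at 0 in the other 3 APO libraries, and in IR64 it was at 15.8, 10.7 and 34.0 under drought and at 9.98, 12.5 and 18.6 in control. The next locus on the chromosome is OsKS1, the ent-kaurene synthase of gibberellin synthesis, which was at 2.73 to 13.7 in APO and at 23.4 to 48.4 in IR64. Both neighbours of OsKS3 were above 1 in all 10 libraries, which holds for no other member.

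The family lists, which were read from gene symbols, held few members. Blast, blight and planthopper resistance symbols marked 22 loci, of which 3 had a lowest APO value of at least 4 and 5 a lowest IR64 value of at least 4. No member of this list was higher in APO, and PISH and Pi37(t) were higher in IR64. Cytochrome P450 symbols marked 112 loci and gave 1 member, CYP714C3. Receptor-like kinase symbols (304 loci), F-box symbols (453), glutathione S-transferase symbols (70), glucosyltransferase symbols (39), heading-date and grain-trait symbols (18) and lectin symbols (1) gave none. Since 48 members have no symbol, these counts say nothing of the families those members belong to.

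**Figure D1:**
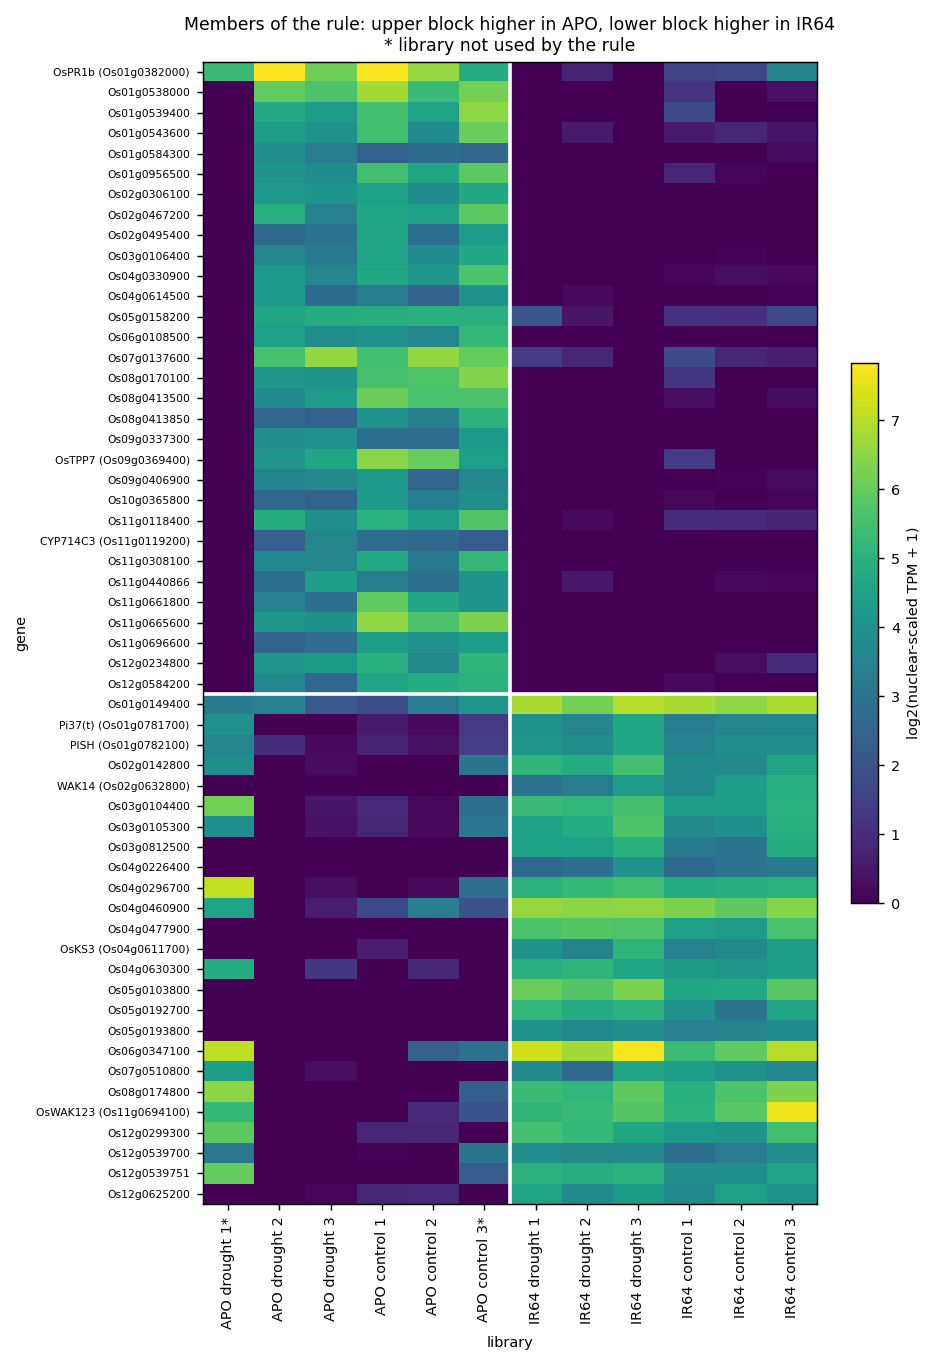
Nuclear-scaled TPM of the 56 genes in each of the 12 libraries, on the scale log2(value + 1), with the 31 genes higher in APO in the upper block and the 25 higher in IR64 in the lower one; an asterisk marks the libraries that the rule did not use. The APO libraries of the rule are bright in the upper block and dark in the lower one, and the library labelled APO drought 1 is dark in 30 of the 31 rows of the upper block.

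Some genes without a symbol had medians in their own cultivar above those of all named genes but OsPR1b. Os07g0137600 (chromosome 7, plus strand, 1985492 to 1987785) was at 45.6 and 93.9 in APO drought 2 and 3 and at 44.2 and 94.6 in APO control 1 and 2, against 0 to 2.56 in IR64. Os01g0538000 (chromosome 1, plus strand, 19681825 to 19686310) was at 60.4, 49.4, 108 and 39.3 in the same 4 APO libraries, and at no more than 1.28 in IR64. After OsPR1b these 2 genes had the highest lowest value among the genes higher in APO. They were followed by Os05g0158200, which kept within 23.8 to 30.2 in APO and reached 3.26 in IR64, and by Os01g0539400, OsTPP7, Os08g0170100, Os11g0665600, Os11g0118400 and Os01g0956500, whose lowest APO values lay between 19.2 and 13.2.

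Among the genes higher in IR64, Os01g0149400 had the highest lowest value. It is a locus of 270 bp on the plus strand of chromosome 1, from 2674414 to 2674683. It was at 9.86, 3.38, 2.66 and 8.72 in APO drought 2 and 3 and APO control 1 and 2, and at 113, 72.7 and 123 under drought and 113, 90.2 and 115 in control in IR64. It was thus present in all 4 APO libraries and is a gene with a large difference, not one listed at 0. Os06g0347100 (chromosome 6, plus strand, 13947426 to 13951272) had the highest median of them. It was listed at 0 in 3 APO libraries and was at 4.25 in APO control 2, and was at 153, 108 and 214 under drought and at 40.7, 60.0 and 127 in control in IR64.

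Os05g0103800 and Os08g0174800 combined a high level in IR64 with a value of 0 in all 4 APO libraries of the rule. Os05g0103800 (chromosome 5, minus strand, 207597 to 209481) was at 65.2, 52.7 and 76.6 under drought and at 24.6, 26.0 and 55.7 in control in IR64. Os08g0174800 (chromosome 8, plus strand, 4352815 to 4361392) was at 39.9, 34.8 and 58.8 under drought and at 30.5, 49.2 and 79.3 in control in IR64. The lowest IR64 values of Os04g0460900, OsWAK123, Os04g0296700, Os03g0104400, Os04g0477900 and Os04g0630300, the others of the 10 highest, lay between 58.9 and 16.8.

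The 18 genes listed at 0 in all libraries of the other cultivar that the rule used are the nearest to an all-or-none pattern, and they are named here for that after their values were seen. The 10 higher in APO are CYP714C3, Os02g0306100, Os02g0467200, Os02g0495400, Os06g0108500, Os08g0413850, Os09g0337300, Os11g0661800, Os11g0665600 and Os11g0696600. Os02g0306100 (chromosome 2, plus strand, 11970612 to 11979811) was among the steadiest of them, at 17.96 and 15.58 in APO drought 2 and 3 and at 21.24 and 13.04 in APO control 1 and 2. Os11g0665600 was the highest, with a lowest value of 14.1 and a highest of 89.1. The 8 higher in IR64 are Os03g0812500, Os04g0226400, Os04g0477900, Os05g0103800, Os05g0192700, Os05g0193800, Os08g0174800 and Os12g0539751. Os04g0477900 (chromosome 4, plus strand, 23912885 to 23915134) was at 48.5, 53.8 and 50.5 in IR64 drought 1 to 3 and at 20.5, 18.6 and 46.6 in IR64 control 1 to 3. In the library labelled APO drought 1, which the rule did not use, Os08g0174800 was at 88.6 and Os12g0539751 at 62.8, and in APO control 3 they were at 4.15 and 3.84. The other 6 were at 0 in both.

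Most members were of moderate level in the cultivar that had them. The median over the APO libraries was 5.73 to 159 for the genes higher in APO, with a median of 17.2, against 30.4 for the 10411 loci of that cultivar, and 7 of the 31 stood above that background value. The median over the IR64 libraries was 6.59 to 117 for the genes higher in IR64, with a median of 25.3, against 31.2 for the 9923 loci, and 9 of the 25 stood above it. The summed level of the 31 genes was 567 to 1226 in the 4 APO libraries and 0 to 16.5 in the 6 IR64 libraries. The summed level of the 25 genes was 6.93 to 26.5 in the 4 APO libraries and 576 to 1175 in the 6 IR64 libraries.

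Within its own cultivar a gene higher in APO varied by a median factor of 3.18 between its lowest and highest library, and a gene higher in IR64 by 2.78. The factor ran from 1.27 to 9.50 over the genes higher in APO and from 1.54 to 6.19 over those higher in IR64.

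In the other cultivar the highest value was below 1 for 22 of the 31 genes higher in APO and for 20 of the 25 genes higher in IR64. IR64 control 1 held the most genes of the APO group above 1, namely 8 of 31, while IR64 drought 3, the shallowest library of the 10, listed all 31 at 0. The 4 APO libraries of the rule each held 2 or 3 of the 25 genes higher in IR64 above 1. Members spanned a median of 2655 bp when higher in APO, against 3561 bp for the loci of that cultivar, and 2877 bp when higher in IR64, against 3667 bp. Another annotated locus overlapped 11 of the 56 members, on the opposite strand for 8 of them. These 8 are Os01g0543600, Os11g0118400, CYP714C3, Os11g0661800, PISH, Os02g0142800, WAK14 and OsWAK123, and since the strand setting of the counting is not given here, reads of these genes and of their opposite-strand partners cannot be told apart.

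The rule drew a limit through a continuous range. The ratio of the lowest value in 1 cultivar to the highest in the other plus 0.5 was 6.17 for OsPR1b, 6.34 for Os05g0158200 and 6.45 for Os01g0539400, which lay just inside the limit in APO. It was 5.81 for Os08g0535000, 5.75 for OsMT2d (Os01g0149200) and 5.39 for Os12g0575400, which lay just outside. On the IR64 side, Os04g0460900 at 6.0015, PISH at 6.68 and Os01g0149400 at 7.02 lay inside, and Os02g0522300 at 5.74, Os12g0209800 at 4.86 and Os8Tak1 (Os01g0115800) at 4.80 lay outside. OsMT2d, a metallothionein that binds metal ions, was at 10.1 to 288 in APO and 0 to 1.26 in IR64. It lies 2 loci before Os01g0149400, which was higher in IR64, so loci of opposite direction stood close together there.

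The libraries that the rule left out give the same measure in data it did not use. In APO control 3, all 31 genes higher in APO were above 1, at 3.90 to 90.4 with a median of 31.9, and 29 of them reached at least the lowest of their 4 APO values. OsPR1b was at 27.9 and CYP714C3 at 3.90 there, both below that lowest value. Of the 31 genes, 13 lay within the range of their 4 APO values and 16 above it. The median gene stood at 196% of its APO median. Of the 25 genes higher in IR64, 13 were above 1 in APO control 3 and 12 were at 0. The highest was Os01g0149400 at 16.6, and the median of the 25 was 1.45, which was 3.51% of their IR64 medians at the median gene. APO control 3 thus had values of all the genes higher in APO and low values of 13 genes higher in IR64.

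The library labelled APO drought 1 went against its label for most members. Of the 31 genes higher in APO, 30 were listed at 0 there, and OsPR1b was at 39.8. Of the 25 genes higher in IR64, 16 were above 1, with a median of 13.8 over the 25 and a highest value of 138 at Os04g0296700. Of the 25, 9 lay within their range over the 6 IR64 libraries and 5 above it. At the depth of this library a nuclear-scaled TPM of 1 stood for a mean read depth of 0.0132, and 26.3% of nuclear loci were above 1, against 64.0% in APO control 3 and 40.3 to 58.4% in the 10 libraries of the rule. Among the genes higher in APO, Os07g0137600 and Os01g0538000 were at 0 in the library labelled APO drought 1. Their lowest values in the 4 APO libraries of the rule were 44.2 and 39.3. The part of read depth in these values was not tested. Whether the labels of this library and of APO control 3 hold, and whether either holds RNA of both cultivars, was not tested.

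The same genes of the IR64 group were seen in both libraries. All 13 that were above 1 in APO control 3 were also above 1 in the library labelled APO drought 1. Another 3, Os04g0630300, Os07g0510800 and Os12g0299300, were at 0 in APO control 3 while above 1 in the library labelled APO drought 1. The remaining 9 were at 0 in both, namely WAK14, Os03g0812500, Os04g0226400, Os04g0477900, OsKS3, Os05g0103800, Os05g0192700, Os05g0193800 and Os12g0625200. The IR64 medians of these 9 ran from 6.59 to 54.2 with a median of 16.7, against 11.5 to 117 with a median of 28.0 for the other 16. What sets the 9 apart from the 16 was not tested.

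**Figure D2:**
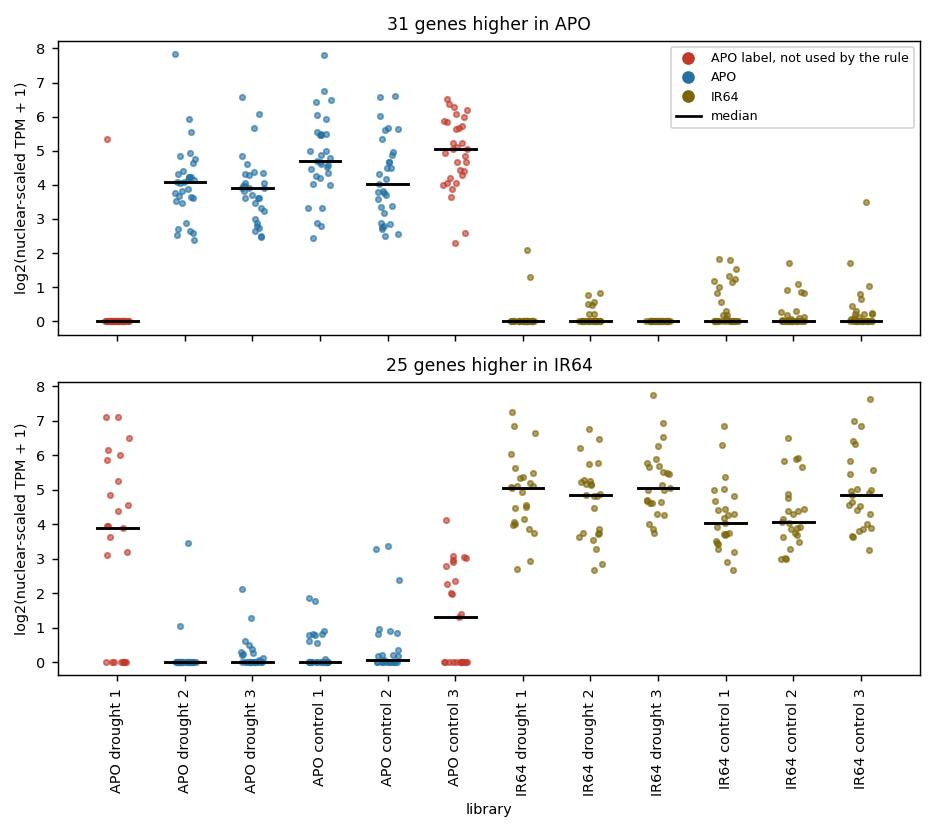
Each point is 1 gene, as log2(nuclear-scaled TPM + 1) in each of the 12 libraries, for the 31 genes higher in APO (top) and the 25 higher in IR64 (bottom), with the median of each library as a bar and the libraries not used by the rule in red. In the library labelled APO drought 1 the upper group lies at 0 apart from 1 gene and 16 genes of the lower group lie above 1, while APO control 3 holds all 31 genes of the upper group above 1.

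The members lay on all 12 chromosomes, unevenly. Genes higher in APO numbered 7 on chromosome 11, which is 1.56% of the 450 loci there with a lowest APO value of at least 4, against 0.298% over all chromosomes. Chromosome 1 followed with 6, and chromosomes 2, 8 and 9 held 3 each. Genes higher in IR64 numbered 6 on chromosome 4 (0.726% of 826 loci) and 4 on chromosome 12 (0.823% of 486 loci), against 0.252% over all chromosomes, and none lay on chromosomes 9 and 10. Chromosome 11, with 7 genes higher in APO, held 1 higher in IR64, OsWAK123.

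Of the 56 genes, 14 had another member of the same direction within 200 kb, in 7 pairs. They were 6 of the 31 genes higher in APO and 8 of the 25 higher in IR64. For comparison, 2.56% of the 10411 loci had a gene higher in APO within 200 kb of them, and 2.67% of the 9923 loci had one higher in IR64, the gene itself left out. The count of members was 10 at a distance of 50 kb, 12 at 100 kb and 17 at 500 kb. The largest group within 500 kb steps was on chromosome 1, where Os01g0543600 lay 298 kb beyond the pair of Os01g0538000 and Os01g0539400.

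The closest pair was Os12g0539700 and Os12g0539751, both on the plus strand of chromosome 12 and 708 bp apart. Os12g0539700 was at 0 to 0.0629 in APO and at 6.45 to 13.8 in IR64, and Os12g0539751 was listed at 0 in APO and was at 13.9 to 32.6 in IR64. On chromosome 8, Os08g0413500 and Os08g0413850 lay 1002 bp apart on the minus strand, at 12.7 to 65.8 and 4.51 to 15.0 in APO, against 0 to 0.232 and 0 in IR64. Whether such close neighbours on 1 strand belong to 1 transcript was not tested.

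Pi37(t) and PISH lay 12.5 kb apart on the plus strand of chromosome 1, at 33120499 to 33124371 and 33136846 to 33145541, with no locus between them in the order of starts. The run of IR64 genes there was longer than the pair. Pi64 (Os01g0781200), a further blast resistance gene 2 loci before Pi37(t), was at 0 to 1.13 in APO and at 3.42 to 6.43 in IR64, and Os01g0781100 beside it was at 0 in APO and at 0.789 to 1.39 in IR64. Os01g0781600 and Os01g0781833 were at 0 in APO and had nearly the same values in IR64, 1.69 to 2.54 for both. Near-identical copies can share reads, so the levels of single genes in this cluster are uncertain. The run ended at loci found in both cultivars: Os01g0781000 was at 12.1 to 28.4 in APO and 5.48 to 32.7 in IR64, and Os01g0782200, on the other strand and overlapping PISH, was at 3.68 to 23.1 in APO and 6.10 to 34.9 in IR64.

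Os03g0104400 and Os03g0105300, 23.7 kb apart on chromosome 3, had 3 loci between them whose highest values were 0 in APO and 1.95 in IR64. The 2 genes themselves were at 0 to 0.854 and 0 to 0.764 in APO, against 18.7 to 44.9 and 11.8 to 49.4 in IR64. Os11g0118400 and CYP714C3, 28.1 kb apart near the start of chromosome 11, were interrupted by a locus of both cultivars: Os11g0119100 was at 7.37 to 12.3 in APO and at 10.3 to 47.3 in IR64. Os05g0192700 and Os05g0193800, 75.6 kb apart on chromosome 5, were listed at 0 in APO and were at 7.04 to 35.7 and 9.69 to 14.9 in IR64. Between them Os05g0193700 was at 0 in APO and at 0 to 26.0 in IR64.

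Os01g0538000 and Os01g0539400, 138 kb apart on chromosome 1, stood in a long stretch. The nearest loci above 1 in all 10 libraries lay 434 kb apart around them. Within this interval Os01g0537250, at 3.22 to 8.62 in APO and 0 to 0.596 in IR64, and Os01g0539900, at 2.68 to 10.1 in APO and 0 to 0.211 in IR64, went the same way while missing the limit of 4. Os11g0661800 and Os11g0665600, 250 kb apart near the end of chromosome 11, were listed at 0 in all IR64 libraries and were at 6.31 to 60.0 and 14.1 to 89.1 in APO.

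**Figure D3:**
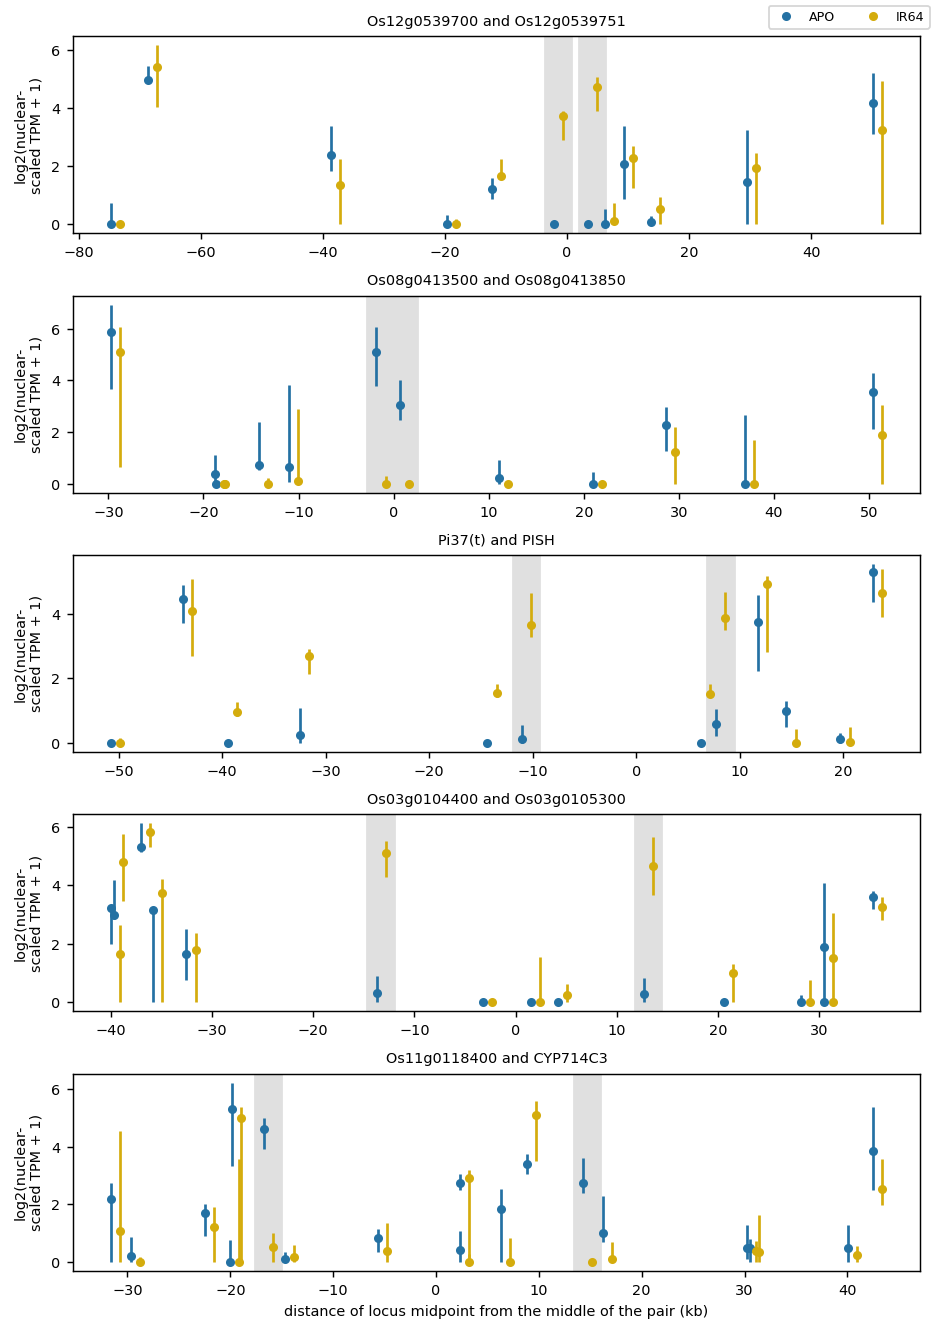
Nuclear-scaled TPM, as log2(value + 1), of the members (grey) and up to 5 loci on each side for the 5 pairs within 50 kb, against distance in kb from the middle of the pair; points are medians and lines run from lowest to highest over the 4 APO libraries (blue) and the 6 IR64 libraries (yellow). Around Pi37(t) and PISH several loci have a value in IR64 and none or nearly none in APO, while CYP714C3 and Os11g0118400 are separated by loci of both cultivars.

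Across all members, the distance between the nearest loci before and after, in the order of starts, that were above 1 in all 10 libraries was 6.36 to 1018 kb with a median of 128 kb for genes higher in APO, and 13.3 to 767 kb with a median of 69.9 kb for genes higher in IR64. Such a locus can start inside the member. This holds for Os02g0306100, which gave the 6.36 kb and contains Os02g0306250, and for PISH, which Os01g0782200 overlaps. Loci above 1 in all 10 libraries, called shared here, made up 28.9% of nuclear loci. The next locus was shared on both sides of 1 gene, OsKS3, on 1 side of 15 genes and on neither side of 40. A locus with a lowest value of at least 1 in the same cultivar and below 1 in all libraries of the other shared the interval of 10 of the 31 genes higher in APO and of 10 of the 25 higher in IR64. A locus of the opposite kind shared the interval of 1 gene, higher in APO. Other members were counted as such loci. In the pairs of Os03g0104400, Os05g0192700, Os08g0413500 and Os12g0539700 the partner was the only one, so these counts partly repeat the pairs above. The share of ordinary loci with such a locus in their interval was not computed. In all, 133 nuclear loci had a lowest APO value of at least 1 and stayed below 1 in IR64, and 55 had the reverse; 22 and 20 of these were members.

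Members of opposite direction also lay near each other. Os03g0106400, higher in APO, lay 50.9 kb beyond Os03g0105300, higher in IR64. Os11g0696600, higher in APO, lay 134 kb beyond OsWAK123, and Os04g0614500, higher in APO, lay 145 kb beyond OsKS3.

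Drought was compared with control within the cultivar that has each gene. The rule did not use this contrast itself, but it used the same values. It asked for a lowest value of at least 4 over drought and control libraries together, so genes near 0 in either condition were left out beforehand. The loci they are set against needed only a mean of at least 1. Among the 31 genes higher in APO, 6 fell under drought and none rose (limma, adjusted p < 0.05 over 24692 nuclear loci, with 2 drought and 2 control libraries). In the same comparison 13.7% of all loci were called lower, 9.44% higher and 23.2% in either direction, so the share of members called lower was near the background. The median log2 difference was -0.37 over the 31 genes and -0.08 over all loci tested, and 22 of the 31 differences were below 0. With the filter at a mean of at least 5, the median over all loci was -0.39, so the members did not fall more than those loci. Drought libraries all lay below control libraries for 12 of the 31 genes, against 35.2% of all loci, and all above for 2, against 28.4%. The number of differences below 0 depended on the scaling. It was 17 with median-of-ratios scaling, where the median over all loci was 0.22, and 28 with deposited TPM, where that median was -0.75. It was 16 without APO control 1 and 22 to 24 without each of the other APO libraries of the fit.

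OsTPP7 was the named gene among the 6. It was at 16.1 and 23.6 in APO drought, mean 19.8 ± 5.35, and at 85.8 and 64.1 in APO control, mean 75.0 ± 15.4 (SD, n = 2 each). The groups did not overlap, and the log2 difference was -1.88 ± 0.41 (SE; limma, adjusted p = 0.00197). APO control 3, which was not in this fit, was at 20.7, within the drought range, and with it kept the difference was -1.28 and was not called. Os08g0413500, of the pair on chromosome 8, was at 12.7 and 19.0 in APO drought and at 65.8 and 47.3 in APO control, a log2 difference of -1.78 ± 0.43 (SE; limma, adjusted p = 0.00448). Its partner Os08g0413850 was at 5.02 and 4.51 in drought and 15.0 and 9.35 in control, -1.16 ± 0.64 (SE; limma, adjusted p = 0.218), which did not pass.

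Both genes near the end of chromosome 11 fell. Os11g0661800 was at 10.1 and 6.31 in APO drought and at 60.0 and 24.3 in APO control (-2.12 ± 0.52, SE; limma, adjusted p = 0.00509), and Os11g0661900, inside it on the opposite strand, was at 3.05 to 33.6 over these libraries. Os11g0665600 was at 16.8 and 14.1 in drought and at 89.1 and 48.7 in control (-2.03 ± 0.43, SE; limma, adjusted p = 0.00158). In APO control 3 they were at 15.7 and 76.4, so Os11g0661800 there lay between the groups and Os11g0665600 with the controls. Os08g0170100 was at 16.8 and 15.8 in drought and at 45.8 and 50.2 in control (-1.50 ± 0.42, SE; limma, adjusted p = 0.0127). Os12g0584200 was at 11.5 and 5.29 in drought and at 22.9 and 28.1 in control (-1.58 ± 0.53, SE; limma, adjusted p = 0.0362). Its call was kept in 1 of 14 alternatives and was lost with a pseudocount of 0.1, with no filter and with median-of-ratios scaling, where the other 5 genes were still called. The calls of those 5 genes were each kept in only 5 to 7 of the 14 alternatives.

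The calls rest on few libraries. Without APO drought 2, and likewise without APO drought 3, 0 of the 31 genes passed (limma; 7 and 4 at an unadjusted p under 0.05, against 29.8 and 41.4% of all loci), and without APO control 1 or without APO control 2, 4 did. A fit of all 4 groups together, deposited TPM and a fit with no variance trend also gave 0 of 31 (7, 0 and 7 at an unadjusted p under 0.05, against 30.4, 9.42 and 29.6% of all loci). The sign of all 6 differences held in each of the 14 alternatives run, but most of these could not change it. The groups did not overlap for any of the 6, so leaving out 1 library or changing the pseudocount had to keep the sign. The other filters, the fit with no variance trend and the fit of all 4 groups left the differences themselves unchanged. OsPR1b, at 147 ± 113 in drought and 159 ± 88.4 in control (SD, n = 2 each), differed by -0.24 ± 0.50 (SE; limma, adjusted p = 0.752), and CYP714C3 by 0.25 ± 0.70 (SE; limma, adjusted p = 0.820), so their spread between libraries was wider than the difference.

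Among the 25 genes higher in IR64, 0 were called between drought and control (limma over 20703 nuclear loci, 3 libraries each), and 4 had an unadjusted p under 0.05, against 16.0% of all loci. Over all loci 0.00966% were called higher, 0.00483% lower and 0.0145% in either direction, so calls were nearly absent in this comparison altogether. The median log2 difference was 0.49 over the 25 genes and 0.26 over all loci tested, with 20 of 25 above 0. With the filter at a mean of at least 5, the median over all loci was 0.35. All drought libraries lay above all control libraries for 9 of the 25 genes, against 13% of all loci, and all below for 0, against 7.21%. Os02g0142800 had the smallest p. It was at 33.6, 27.9 and 44.1 in IR64 drought and at 12.1, 11.9 and 22.6 in IR64 control, a log2 difference of 1.17 ± 0.41 (SE; limma, adjusted p = 0.263). The groups did not overlap.

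This comparison turned on IR64 control 3. With it left out, 6 of the 25 genes were called, all higher in drought, and so were 3393 of all loci, with Os02g0142800 at 1.45. The direction also depended on the scaling: with deposited TPM, which counts rRNA and organelle genes in the total, 0 of the 25 differences were above 0 and that of Os02g0142800 was -0.32, while the median over all loci was -0.96. With median-of-ratios scaling 12 of the 25 were above 0, where the median over all loci was -0.22. PISH was at 18.2 ± 5.51 in drought and 12.4 ± 1.80 in control (SD, n = 3 each), and OsKS3 at 20.2 ± 12.2 in drought and 13.7 ± 4.45 in control (SD, n = 3 each). WAK14 and OsWAK123 had the lowest differences, -0.84 ± 0.54 (SE; limma, adjusted p = 0.457) and -0.78 ± 0.63 (SE; limma, adjusted p = 0.549), which did not pass.

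**Figure D4:**
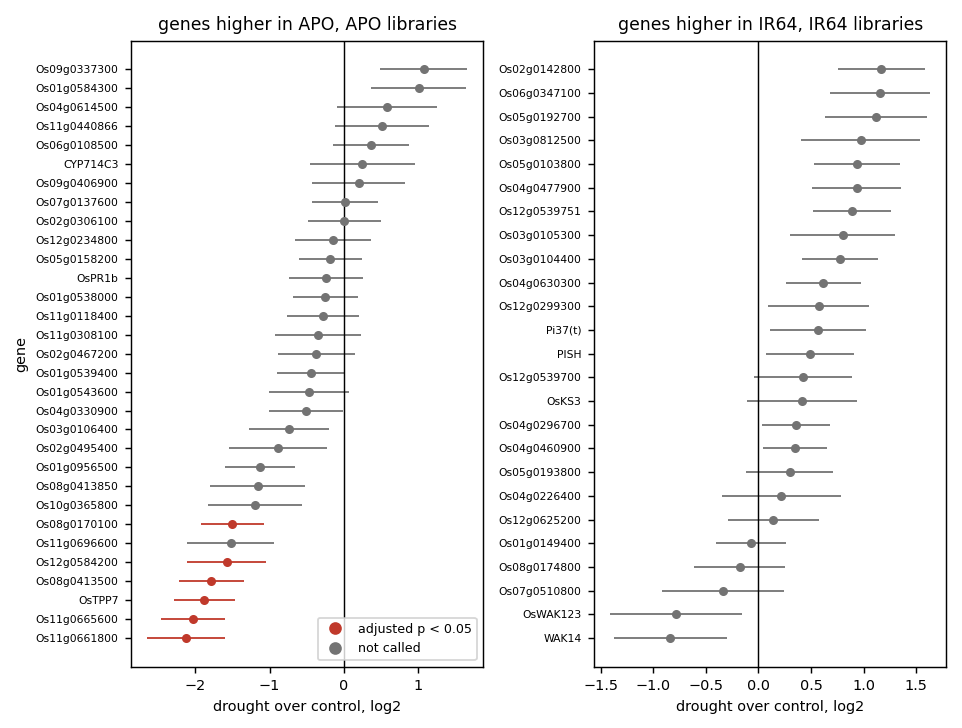
Difference between drought and control within the cultivar that has the gene, as log2 with its standard error, for the 31 genes higher in APO (left, 2 drought and 2 control libraries) and the 25 higher in IR64 (right, 3 and 3 libraries), with genes passing adjusted p < 0.05 in red. In the left panel 6 genes pass, all below 0, and in the right panel none passes.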

How the data were processed

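Polysome-bound mRNA of rice leaf was sequenced in 12 libraries, and groups and replicate numbers came from the labels. Credited to the submitters' processing notes, the tools are StringTie 1.3.4, HISAT2 2.1.0 and DESeq2 2.11.38, whose roles are not stated. The genome build, annotation and strand setting are not given in the sources used here. Per the file headers, the authors' tables list for each gene its coverage, a signal giving the average depth of reads over its bases, its FPKM and its TPM. Deposited TPM shares 1 total over all annotated genes, rRNA and organelle genes included, so it was rescaled to 1000000 over nuclear loci, as the rule for the genes asks. Counts of reads were not used here, and depth is known only through coverage. A gene symbol can be missing from 1 table and present in another, so symbols were merged over all tables.

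The genes and gene lists were chosen with earlier results of these data known. The rule did not use the library labelled APO drought 1, nor APO control 3. Genes were named by rule: those with a symbol, the 10 of each direction with the highest lowest value, those within 200 kb of another, those called for drought, and the 3 nearest to the limit on each side; other loci are named as their neighbours.

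Drought was tested in each cultivar alone, because a gene near 0 in the other cultivar has almost no spread there, with limma 3.58.1 and its variance trend in R 4.3.3. The test used log2(value + 1), which understates the change of low genes, over loci with a mean of at least 1. All 56 genes passed this filter. P-values were adjusted by Benjamini-Hochberg over all loci tested, and called means an adjusted p under 0.05. Non-overlap counts compare the same libraries. Alternatives are other scalings, pseudocounts, filters, limits, library sets and fits. The fits were tested on simulated data. Tables and figures used Python 3.11.15, pandas 2.3.3, numpy 2.4.6 and matplotlib 3.10.9. No sequences are shown, since no sequence table was at hand.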

Additional observations from a re-analysis of the deposited data

Results flagged for a closer look

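Values of the genes higher in IR64 appeared in both APO libraries that the rule did not use. Above 1 nuclear-scaled TPM were 16 of the 25 in the library labelled APO drought 1 and 13 of the 25 in APO control 3, against 2 or 3 of the 25 in each of the 4 APO libraries of the rule. The limit of 1 is unlike between them, since nearly all loci above 0 were above 1 in these 2 libraries (9962 of 9976 and 24207 of 24466). Listed at 0 were 9 and 12 of the 25 there, against 23, 14, 15 and 12 in APO drought 2 and 3 and APO control 1 and 2. A nuclear-scaled TPM of 1 stood for a mean read depth of 0.0132 and 0.0446 in these 2 libraries, and the part of depth, or of the labels, in the result was not tested.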

How the results depend on the processing

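The number of genes found depends on the libraries and the scaling. From 31 higher in APO, it became 0 with all 12 libraries, 2 with deposited TPM, 1 with deposited FPKM, 19 with a lowest value of at least 8, 11 with a fold of at least 12 and 16 with an offset of 1, and 31 to 48 when 1 library was left out, with 48 without APO drought 2. From 25 higher in IR64, it became 9 with all 12 libraries, 15 with APO control 3 kept (an alternative chosen after seeing the data), 9 with deposited TPM, 1 with FPKM and 13 with a fold of at least 12, and 25 to 34 when 1 library was left out. Under this rule leaving out a library can only keep or add genes, so these ranges could not fall below 31 and 25. Other limits, and median-of-ratios scaling (29 and 28 genes), stayed within 1.5 times, as did the members within 50, 100 and 500 kb of another.

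For drought in APO, 5726 loci were called. It was 31 with deposited TPM, 193 with all APO libraries, 3037 with APO control 3 kept, 3285 in 1 fit of 4 groups, 2396 with no variance trend, and 0 to 3868 leaving out 1 library, with 0 without APO drought 3. Members called went from 6 to 0, 0, 3, 0 and 0 in those settings, and were 0 to 4 leaving out 1 library. In IR64, 3 loci were called, and 0 with no filter, 1586 with deposited TPM, 325 in 1 fit of 4 groups and 0 with no variance trend, and 0 to 3393 leaving out 1 library; members called were 0 to 6. The difference of Os02g0142800 reversed to -0.32 with deposited TPM. The cause was not tested.

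Replicate numbers are shared between groups, but same-numbered libraries did not deviate together: the correlations were -0.17, 0.03 and 0.01 in IR64, and -0.09 for number 2 in APO. With a replicate block in the fit of 4 groups, 2449 loci and 0 members were called in APO and 162 loci and 0 members in IR64, and with a replicate block in the fit of the IR64 libraries alone 0 loci and 0 members. The APO libraries alone could not be fitted with the block, since they share 1 number. Depth limits values of 0 most in IR64 drought 3.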
